A study of Mus musculus with 18 samples.

Results

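The immunity-related GTPases (IRGs) and the guanylate-binding proteins (GBPs) are families of large GTPases that cells make on interferon. The 9 genes described here were chosen by name: the IRG genes *Irgm1*, *Irgm2*, *Igtp*, *Iigp1*, *Tgtp1* and *Tgtp2* and the GBP genes *Gbp2*, *Gbp3* and *Gbp7*. Each matched 1 Ensembl gene, so that 9 of the 51912 genes in the table of expected counts were followed, and all 9 passed the filter on low counts that left 15710 genes for testing. The samples were mouse embryonic fibroblasts (MEFs), primary cells grown from mid-gestation C57BL/6 embryos without head, heart and liver, at passage 1, in 15% serum and 5% oxygen, with no interferon named in the culture conditions. There were 18 libraries, 3 for each of 6 genotypes, which were *Trp53*+/+, *Trp53*+/- and *Trp53*-/- in a *Pole4*+/+ and in a *Pole4*-/- background. *Pole4* encodes an accessory subunit of DNA polymerase epsilon, and *Trp53* encodes the tumor suppressor TRP53. Both alleles are inherited nulls of the whole animal and not a knockout in a chosen cell type. Nothing in the labels says which libraries came from separate embryos, so p-values measure the spread between these libraries.

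Interferons act through receptors and Janus kinases on transcription factors that bind 2 kinds of site, the gamma-activated site (GAS) and the interferon-stimulated response element (ISRE), and IRF1 can bind the latter. In infected fibroblasts and macrophages the effectors of the IRG family, among them the products of *Iigp1*, *Tgtp1* and *Tgtp2*, load onto the vacuole around a parasite such as Toxoplasma gondii and break it. The regulators *Irgm1*, *Irgm2* and *Igtp* (also known as Irgm3) stay on the cell's own membranes and keep the effectors off them, and GBPs coat the membranes of pathogens and their vacuoles.

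The starts of these genes carry the letters of both kinds of site. RefSeq promoters of GRCm38.p6 were at hand for 8 of the members. An ISRE-like match (GAAANNGAAA on either strand) lay within the 250 bases before the start in all 8, against 2.98% of 32851 mouse promoters, although the second annotated start of *Gbp3* had none. A GAS-like match (TTCNNNGAA, which reads the same on both strands) lay there in 5 of the 8, against 7.02% of all promoters. Both were found in 0.332% of all promoters, and in *Igtp*, *Irgm2*, *Tgtp1*, *Tgtp2* and *Gbp7*. The 120 bases before the start are shown for these 5 genes and for *Irgm1*, which held only ISRE-like matches. Matches are in capitals, 5′ to 3′ on the strand of the gene.
*Igtp*, chr11:58199436-58199555, plus strand: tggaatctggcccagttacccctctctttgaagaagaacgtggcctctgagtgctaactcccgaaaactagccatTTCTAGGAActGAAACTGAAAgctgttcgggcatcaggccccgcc
*Irgm2*, chr11:58214857-58214976, plus strand: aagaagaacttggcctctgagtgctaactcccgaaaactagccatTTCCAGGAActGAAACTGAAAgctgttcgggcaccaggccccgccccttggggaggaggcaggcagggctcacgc
*Tgtp1*, chr11:48992247-48992366, minus strand: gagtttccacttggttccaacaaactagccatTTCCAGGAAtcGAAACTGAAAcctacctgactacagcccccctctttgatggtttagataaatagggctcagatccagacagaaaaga
*Tgtp2*, chr11:49064213-49064332, minus strand: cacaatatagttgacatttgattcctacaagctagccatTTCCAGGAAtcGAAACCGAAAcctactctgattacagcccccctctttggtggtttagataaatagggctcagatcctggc
*Irgm1*, chr11:48871421-48871540, minus strand: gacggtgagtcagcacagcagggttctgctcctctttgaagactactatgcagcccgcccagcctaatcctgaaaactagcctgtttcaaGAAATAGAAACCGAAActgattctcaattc
*Gbp7*, chr3:142530216-142530335, plus strand: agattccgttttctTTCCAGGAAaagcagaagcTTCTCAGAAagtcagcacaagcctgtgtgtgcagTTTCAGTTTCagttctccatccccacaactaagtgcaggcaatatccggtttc

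In *Igtp*, *Irgm2*, *Tgtp1* and *Tgtp2* the GAS-like match was followed after 2 bases by the ISRE-like match. *Igtp* and *Irgm2* shared an unbroken run of 55 bases in these promoters, and *Tgtp1* and *Tgtp2* one of 27 bases. From 10 bases before the GAS-like match to the end of the ISRE-like match, *Igtp* and *Tgtp1* were the same at 28 of 31 bases. In *Gbp7* the matches stood apart, by 25 and 44 bases. *Irgm1* held 2 overlapping ISRE-like matches and no GAS-like one, as did *Gbp3*, and *Gbp2* held a single ISRE-like match 59 to 50 bases before its start. A non-coding transcript of *Irgm1* in GENCODE covers the whole stretch shown for that gene. Such matches describe letters only; binding was not measured here.

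**Figure D1:**
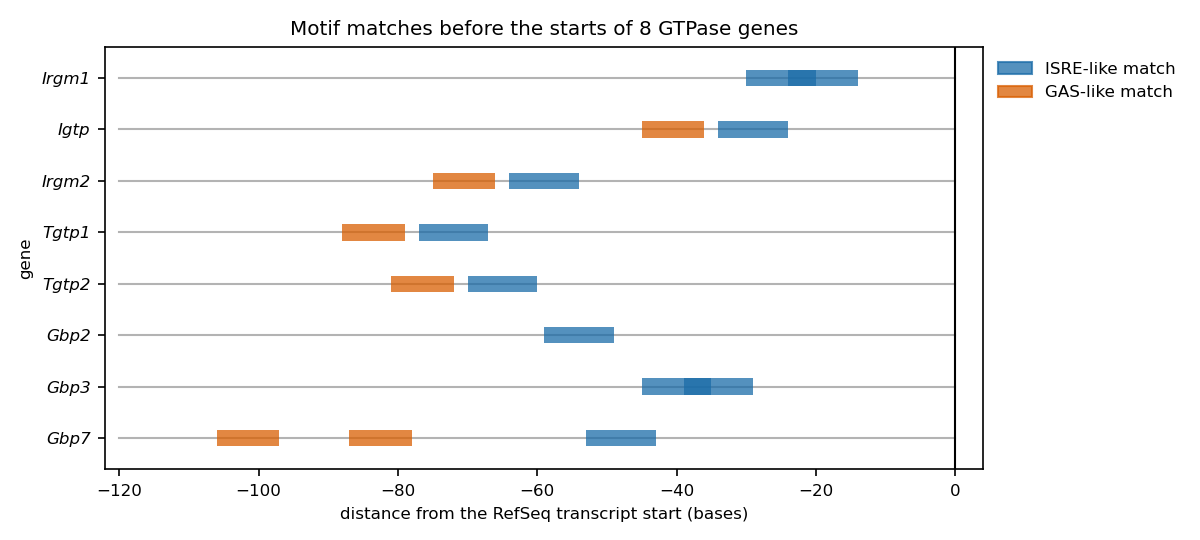
Positions of ISRE-like (blue) and GAS-like (orange) matches before the RefSeq start of 8 members, with the distance from the start in bases on the x axis and 1 gene on each line. The GAS-like and ISRE-like matches lie 2 bases apart in Igtp, Irgm2, Tgtp1 and Tgtp2, and darker blue marks the overlap of 2 ISRE-like matches in Irgm1 and Gbp3.

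*Irgm1*, *Tgtp1* and *Tgtp2* lie within chr11:48861968-49064206 and *Igtp* and *Irgm2* within chr11:58199556-58222782, while *Gbp7*, *Gbp3* and *Gbp2* lie within chr3:142530342-142638008 (GRCm38). *Iigp1* lies outside these clusters. *Tgtp1* and *Tgtp2* are near-identical copies: 73.1% and 76.8% of the stretches of 100 bases in their transcripts, the length of a read, also occurred in transcripts of other genes, mostly in each other. The way their reads were divided is therefore uncertain, and their expected counts were not whole in 17 and 18 of the 18 libraries. For *Gbp7* the share was 10.01%, mostly with *Gm43802*, for *Igtp* 5.16% and for *Irgm2* 3.01% with each other, where a transcript of *Irgm2* starts within *Igtp*, and for *Gbp3* 0.694%. *Irgm1*, *Iigp1* and *Gbp2* shared no such stretch.

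Library totals ran from 9535971 to 35319918 expected counts, and ribosomal RNA took from 0.968% to 42.5% of them. *Trp53* measured 8.65 to 12.1 counts per 1000000 (CPM) in the *Trp53*-/- libraries, 48.4 to 59.6 in *Trp53*+/- and 64.2 to 96.1 in *Trp53*+/+. *Pole4* measured 9.26 to 12 CPM in *Pole4*-/- and 14.2 to 26.4 in *Pole4*+/+. The 10 fibroblast markers summed to between 14351 and 31325 CPM, and 14 macrophage markers to between 7.04 and 75.3, while the summed markers of lymphoid and natural killer cells stayed at or under 0.167. By *Xist* and Y-linked genes, the *Pole4*+/+ libraries were female in *Trp53*+/+ and *Trp53*-/- and male in *Trp53*+/-, and the *Pole4*-/- genotypes held both sexes. Sex and genotype therefore cannot be told apart in any comparison of *Pole4*+/+ *Trp53*+/- with *Pole4*+/+ *Trp53*+/+. The *Pole4*+/+ *Trp53*-/- library 1 held 9.08 CPM of Y-linked genes beside 1081 CPM of *Xist*, where the other female libraries held at most 0.337 CPM of Y-linked genes. That library stood apart in the members too, so fold changes of members that rest on it are given with and without it. Correlations below use all 18 libraries and were not taken without it.

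Levels below are CPM scaled by the trimmed mean of M values (TMM), as mean ± SD over 3 libraries. Per kb of exon, *Irgm1* was the highest of the members, at a mean of 6.31 CPM per kb over the 18 libraries, followed by *Gbp2* at 3.97. *Irgm2* and *Tgtp2* measured 0.871 and 0.814 CPM per kb, *Tgtp1* 0.611, *Igtp* 0.516, *Gbp7* 0.433 and *Gbp3* 0.272. *Iigp1* was the lowest, at 0.0399 CPM per kb, or 102 counts in all 18 libraries together, so counting error weighs heavily on it. *Irgm1* and *Gbp2* thus had a steady supply of reads, with at least 273 and 72 counts in every library, whereas *Igtp* went down to 4 counts, *Gbp3* to 2 and *Iigp1* to 0.

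**Figure D2:**
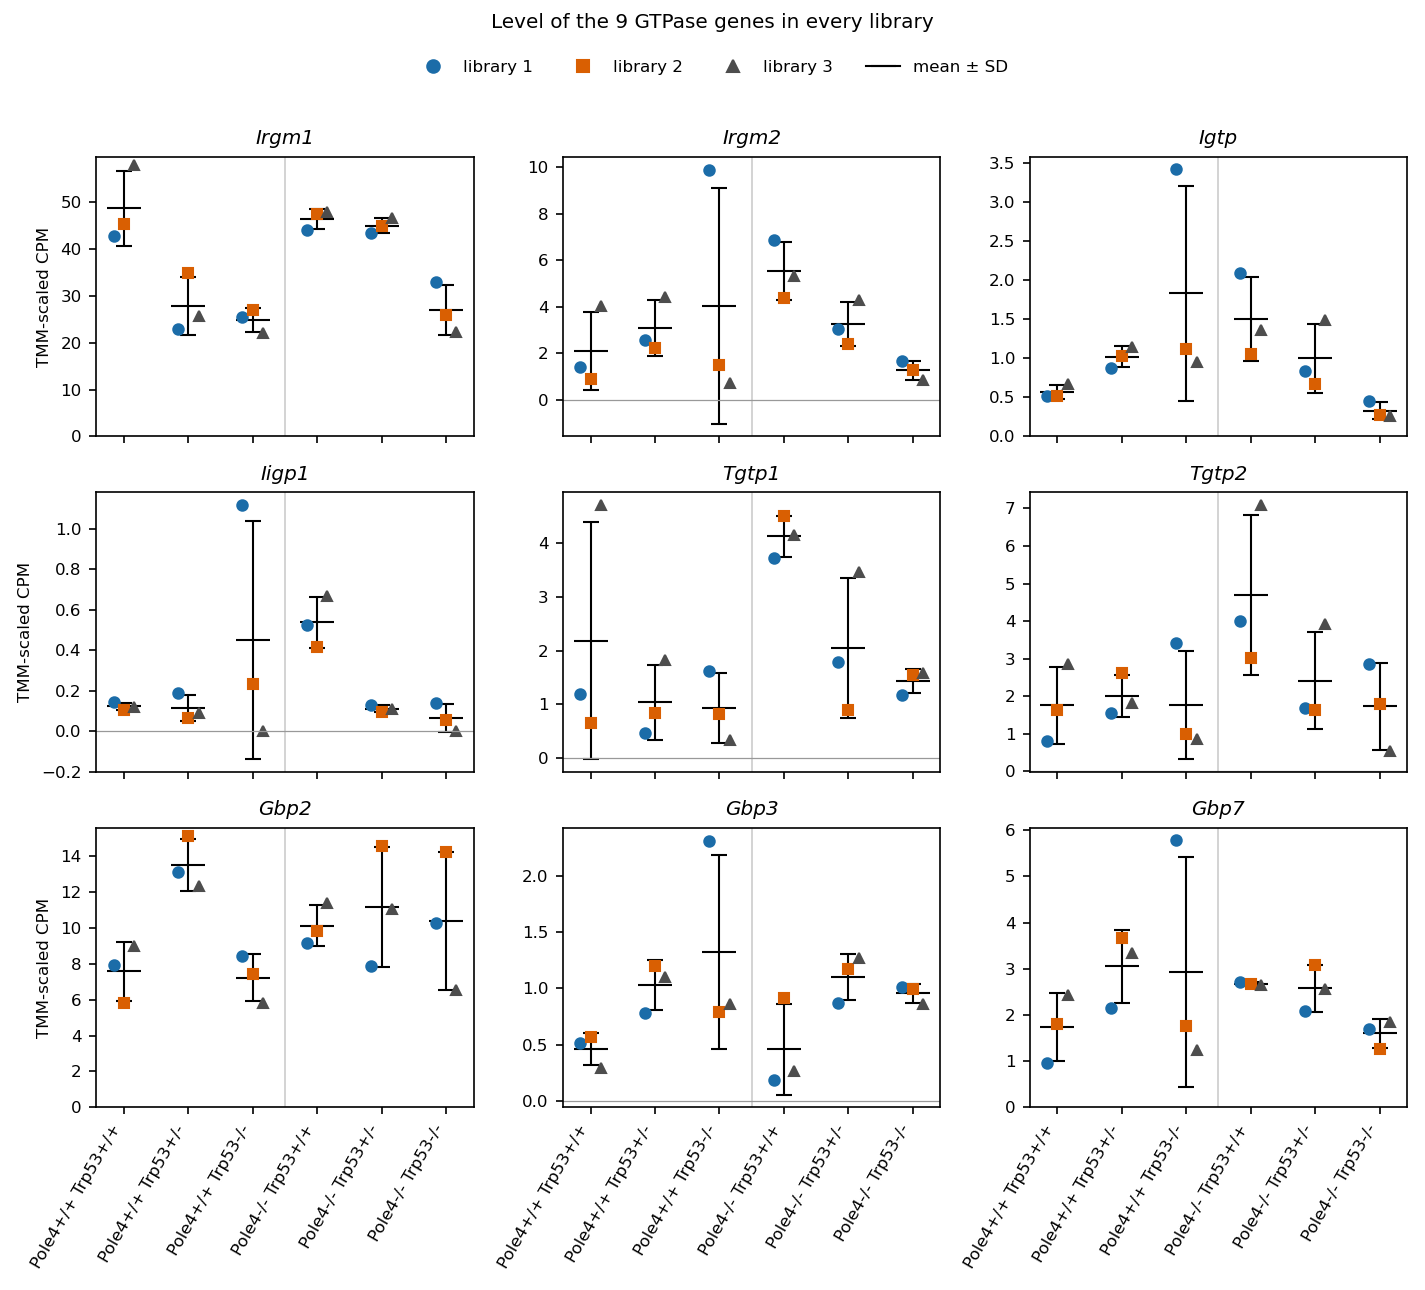
TMM-scaled CPM (y axis) of the 9 genes in each library, by genotype (x axis); circles, squares and triangles are libraries 1, 2 and 3, and the bars show mean ± SD of 3 libraries, with a line between Pole4+/+ and Pole4-/-. Irgm1 lies at 42.8 to 57.9 CPM in Pole4+/+ Trp53+/+ and at 22.1 to 27.1 in Pole4+/+ Trp53-/-, and the Pole4+/+ Trp53-/- library 1 is the highest of all 18 for Irgm2, Igtp, Iigp1, Gbp3 and Gbp7.

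*Irgm1*, the regulator needed for resistance to many intracellular bacteria and protozoa, fell with the loss of *Trp53* in both *Pole4* backgrounds. In *Pole4*+/+ cells the *Trp53*+/+ libraries measured 42.8, 45.4 and 57.9 CPM and the *Trp53*-/- libraries 25.5, 27.1 and 22.1 CPM. The *Pole4*-/- *Trp53*+/+ libraries measured 44.1, 47.5 and 47.9 CPM and the *Pole4*-/- *Trp53*-/- libraries 32.9, 25.9 and 22.3 CPM. In neither background did the groups overlap. The log2 fold change was -0.96 ± 0.16 (SE) in *Pole4*+/+ cells (adjusted p = 0.00269) and -0.78 ± 0.16 in *Pole4*-/- cells (adjusted p = 0.00141) by edgeR's quasi-likelihood test with Benjamini-Hochberg adjustment. Both calls held with each library left out in turn, and that in *Pole4*+/+ cells was lost when only the libraries compared were fitted (adjusted p = 0.0617). The difference between the 2 effects was 0.19 ± 0.23 on the log2 scale (adjusted p = 0.614).

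With 1 copy of *Trp53*, the level of *Irgm1* lay apart in the 2 *Pole4* backgrounds, by a difference that did not pass adjustment over all genes. The *Pole4*+/+ *Trp53*+/- libraries measured 23.0, 34.9 and 25.7 CPM, where the 6 *Trp53*-/- libraries ran from 22.1 to 32.9 CPM. The *Pole4*-/- *Trp53*+/- libraries measured 43.5, 45.0 and 46.6 CPM, within the range of *Trp53*+/+. Against *Pole4*+/+ *Trp53*+/+, *Irgm1* fell with 1 copy in *Pole4*+/+ cells by 0.81 ± 0.16 on the log2 scale (adjusted p = 0.025), and against *Pole4*-/- *Trp53*+/+ the value in *Pole4*-/- *Trp53*+/- was -0.04 ± 0.16 (adjusted p = 0.884). The direct comparison of the *Trp53*+/- groups gave 0.69 ± 0.16 with an unadjusted p of 0.000531 (adjusted p = 0.278), and the groups did not overlap. With sex as a covariate the *Pole4*+/+ *Trp53*+/- effect was -0.79 ± 0.22 (adjusted p = 0.123), and in that comparison sex and genotype cannot be told apart, since the libraries were all male on one side and all female on the other. The call was also lost with library totals in place of TMM (adjusted p = 0.0799), with only the libraries compared (adjusted p = 0.0944), without *Pole4*+/+ *Trp53*+/- library 1 (-0.68, adjusted p = 0.179), without library 3 (-0.77, adjusted p = 0.119), and without *Pole4*+/+ *Trp53*+/+ library 2 (-0.85, adjusted p = 0.0703) or library 3 (-0.67, adjusted p = 0.107).

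The summed level of 6 markers of skeletal muscle, most of it *Acta1*, was low in the same 3 genotypes as *Irgm1*. In *Pole4*+/+ cells it was 77.1 to 84.0 CPM with *Trp53*+/+, 36.0 to 56.4 with *Trp53*+/- and 27.9 to 33.7 with *Trp53*-/-. In *Pole4*-/- cells it was 76.0 to 103, 78.6 to 156 and 31.1 to 52.7 CPM in the same order. Without *Trp53*, *Acta1* was the 1 marker of 5 tested that was called, lower, in each background, and the median log2 fold change of the 5 was 1.45 in *Pole4*+/+ and 1.16 in *Pole4*-/- cells. In *Pole4*+/+ *Trp53*+/- cells the median was -0.84, with all 5 values negative. Their part in the result was not tested, and in bulk RNA fewer cells of a type and less RNA per cell cannot be told apart. The macrophage markers, none of the 14 at 0 in a whole group, summed in *Pole4*+/+ cells to 7.04 to 75.3 CPM with *Trp53* and 9.85 to 39.5 without, and in *Pole4*-/- cells to 12.9 to 34.7 CPM with *Trp53* and 9.16 to 46.8 without, so they overlapped between the groups.

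*Igtp*, another regulator of the effectors, went in opposite directions with the loss of *Trp53*. In the *Pole4*-/- background it measured 2.10, 1.05 and 1.36 CPM in *Trp53*+/+ and 0.454, 0.275 and 0.265 CPM in *Trp53*-/- libraries. All 3 libraries without *Trp53* lay below all 3 with it, and the log2 fold change was -2.20 ± 0.52 (adjusted p = 0.00341). In the *Pole4*+/+ background it measured 0.524, 0.517 and 0.667 CPM in *Trp53*+/+ and 3.42, 1.12 and 0.956 CPM in *Trp53*-/- libraries. Here all 3 libraries without *Trp53* lay above, with a log2 fold change of 1.75 ± 0.48 (adjusted p = 0.0474). Without the *Pole4*+/+ *Trp53*-/- library 1, at 3.42 CPM, the value was 0.88 ± 0.43 and not called (adjusted p = 0.171), though the other two libraries still lay above the 3 *Trp53*+/+ libraries. The call was also lost without any 1 of the *Trp53*+/+ libraries (adjusted p from 0.12 to 0.148), with library totals alone (0.119), with no filter on low counts (0.0619) and with only the libraries compared (0.367).

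The difference of these effects was itself called: the *Trp53*-/- effect on *Igtp* was lower by 3.95 ± 0.71 on the log2 scale in *Pole4*-/- than in *Pole4*+/+ cells (log2 value -3.95, adjusted p = 0.0362). *Igtp* was the only member of 9 called for this difference, where 0.153% of all genes were called lower. Without the *Pole4*+/+ *Trp53*-/- library 1 the difference was -3.10 ± 0.59 (adjusted p = 0.0327). It stayed negative, from -4.28 to -3.10, whichever of the 12 libraries was left out, but passed the threshold in 4 of these 12 fits, those without 1 of the *Pole4*+/+ *Trp53*-/- libraries or without *Pole4*+/+ *Trp53*+/+ library 3, with adjusted p from 0.00893 to 0.129. With sex as a covariate it was -4.08 ± 0.70 (adjusted p = 0.0628), and with library totals alone or only the libraries compared the adjusted p was 0.146 and 0.12. For *Iigp1* and *Irgm2* the difference was -4.76 ± 1.297 (adjusted p = 0.0616) and -3.11 ± 1.03 (adjusted p = 0.0858), and without the *Pole4*+/+ *Trp53*-/- library 1 it was -2.98 and -1.26 (adjusted p = 0.191 and 0.382).

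*Irgm2*, the neighbour of *Igtp* on the chromosome, measured 6.85, 4.37 and 5.33 CPM in *Pole4*-/- *Trp53*+/+ and 1.68, 1.295 and 0.862 CPM in *Pole4*-/- *Trp53*-/- libraries. The groups did not overlap, and the log2 fold change was -2.09 ± 0.75 (adjusted p = 0.0355). Leaving out single libraries gave values from -2.34 to -1.89, of which only that without *Pole4*-/- *Trp53*+/+ library 2 was called (adjusted p = 0.0485), and the others had adjusted p up to 0.112. Library totals alone (adjusted p = 0.0878) and no filter (adjusted p = 0.111) ended the call as well. In *Pole4*+/+ cells the groups overlapped: 1.41, 0.879 and 4.02 CPM in *Trp53*+/+ against 9.88, 1.52 and 0.742 in *Trp53*-/- libraries. The fitted value there, 1.01 ± 0.71 (adjusted p = 0.497), turned to -0.85 without the *Pole4*+/+ *Trp53*-/- library 1.

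*Iigp1*, an effector that coats the parasite's vacuole, was near the limit of counting. In *Pole4*-/- *Trp53*+/+ libraries it measured 0.524, 0.417 and 0.669 CPM (14, 5 and 5 counts) and in *Pole4*-/- *Trp53*-/- libraries 0.136, 0.0524 and 0 CPM (3, 1 and 0 counts). The groups did not overlap, with a log2 fold change of -2.83 ± 0.99 (adjusted p = 0.03). From the summed counts, 24 against 4, the ratio was 7.31 with a 95% interval of 2.51 to 29.0 (exact, counting error only). The call was kept in 2 of 6 fits that left out 1 library, those without *Pole4*-/- *Trp53*+/+ library 2 and without *Pole4*-/- *Trp53*-/- library 1, and adjusted p was at most 0.0914 in the rest. In *Pole4*+/+ cells the values were 0.142, 0.103 and 0.119 CPM in *Trp53*+/+ and 1.12, 0.233 and 0 CPM in *Trp53*-/- libraries, the first of which held 40 counts. The log2 fold change of 1.93 ± 0.84 was not called (adjusted p = 0.221) and was 0.14 without that library.

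The copies *Tgtp1* and *Tgtp2*, whose products are effectors too, measured 3.72, 4.49 and 4.15 and 3.99, 3.02 and 7.09 CPM in the *Pole4*-/- *Trp53*+/+ libraries. In *Pole4*-/- *Trp53*-/- libraries *Tgtp1* measured 1.18, 1.55 and 1.58 CPM and *Tgtp2* 2.85, 1.80 and 0.540 CPM. Both lay wholly below, but neither fold change was called, at -1.51 ± 0.68 (adjusted p = 0.0866) for *Tgtp1* and -1.40 ± 0.63 (adjusted p = 0.0879) for *Tgtp2*. *Tgtp1* was called when only the libraries compared were fitted (adjusted p = 0.000899), and *Tgtp2* without *Pole4*-/- *Trp53*-/- library 1 (-1.97, adjusted p = 0.0478). In *Pole4*+/+ cells *Tgtp1* spread from 0.654 to 4.70 CPM among the 3 *Trp53*+/+ libraries alone. The values of both copies there overlapped with those of *Trp53*-/- (-1.13 ± 0.68 and 0.10 ± 0.63, adjusted p = 0.413 and 0.957). Without the *Pole4*+/+ *Trp53*-/- library 1 they were -1.83 and -0.86, and neither was called.

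None of the 3 GBP genes was called in any comparison. *Gbp2*, which coats the vacuoles of parasites, measured 9.17, 9.85 and 11.4 CPM in *Pole4*-/- *Trp53*+/+ and 10.3, 14.2 and 6.56 CPM in *Pole4*-/- *Trp53*-/- libraries. These overlapped, with a log2 fold change of 0.05 ± 0.26 (adjusted p = 0.911). In *Pole4*+/+ cells the difference was -0.06 ± 0.26 (adjusted p = 0.94). The highest group was *Pole4*+/+ *Trp53*+/-, at 13.1, 15.1 and 12.3 CPM, wholly above the 7.95, 5.79 and 9.02 CPM of *Pole4*+/+ *Trp53*+/+, but the log2 fold change of 0.83 ± 0.26 did not pass (adjusted p = 0.183). Sex and genotype cannot be told apart in that comparison.

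*Gbp3* was higher without *Trp53* in its means but not by the test. It measured 0.514, 0.569 and 0.297 CPM in *Pole4*+/+ *Trp53*+/+ and 2.31, 0.793 and 0.860 CPM in *Pole4*+/+ *Trp53*-/- libraries. The groups did not overlap and the log2 fold change was 1.53 ± 0.51 (adjusted p = 0.0999), or 0.79 without the *Pole4*+/+ *Trp53*-/- library 1 (adjusted p = 0.319). In the *Pole4*-/- background it was 1.11 ± 0.56 (adjusted p = 0.124), from 0.187, 0.918 and 0.268 CPM in *Trp53*+/+ to 1.02, 0.995 and 0.862 CPM in *Trp53*-/-. The *Trp53*+/+ library 2 overlapped with the latter, and without it the value was 2.14 (adjusted p = 0.012). This was the only 1 of 6 fits with a library left out that was called, and the lowest value among them was 0.58.

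*Gbp7* measured 2.72, 2.67 and 2.65 CPM in *Pole4*-/- *Trp53*+/+ and 1.71, 1.26 and 1.86 CPM in *Pole4*-/- *Trp53*-/- libraries. It lay wholly below, with a log2 fold change of -0.74 ± 0.48 that was not called (adjusted p = 0.227), except when only the libraries compared were fitted (adjusted p = 0.0462). In the *Pole4*+/+ background the groups overlapped, at 0.967, 1.81 and 2.43 CPM against 5.79, 1.77 and 1.23 CPM (0.82 ± 0.46, adjusted p = 0.367). Without the *Pole4*+/+ *Trp53*-/- library 1 that value turned to -0.19.

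**Figure D3:**
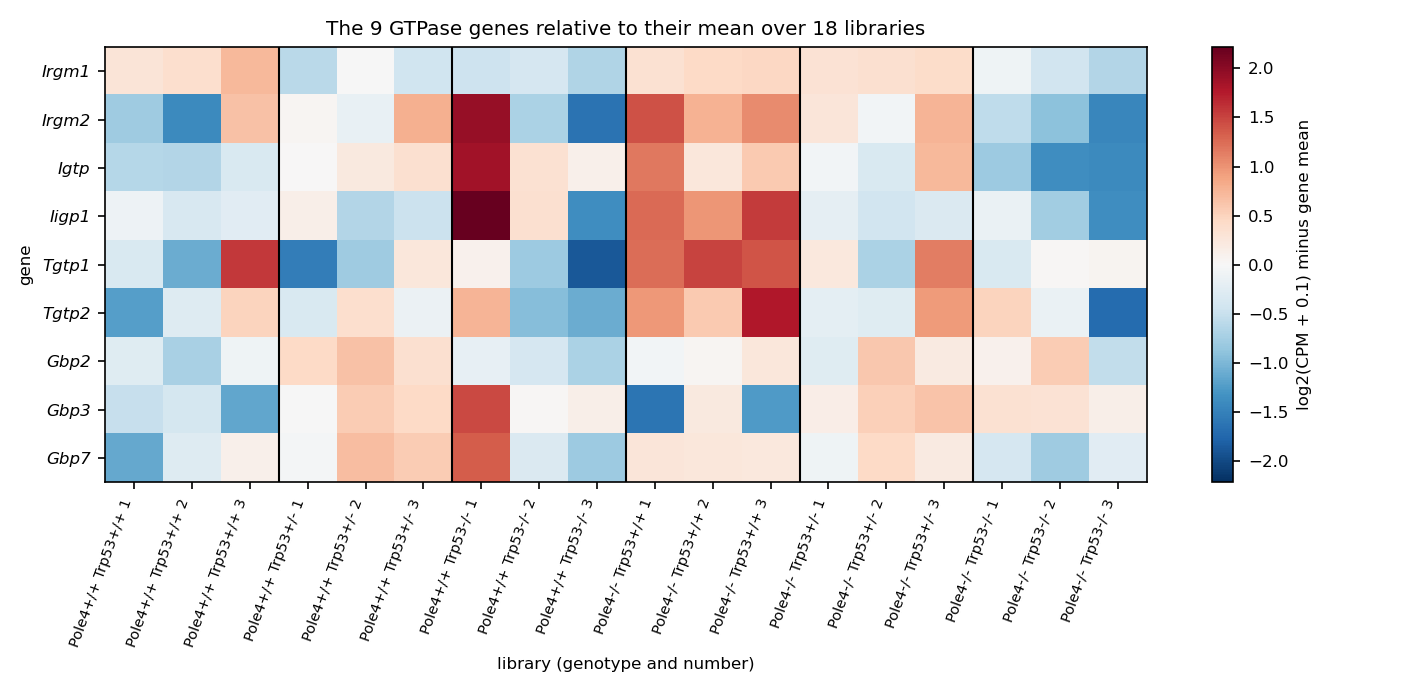
Level of the 9 genes (y axis) in the 18 libraries (x axis), as log2 of CPM plus 0.1 minus the mean of that gene, red where higher and blue where lower; black lines part the genotypes. The 3 Pole4-/- Trp53+/+ libraries are above the mean for the 6 IRG genes, the 3 Pole4-/- Trp53-/- libraries are below it for Irgm1, Irgm2, Igtp and Iigp1, and the Pole4+/+ Trp53-/- libraries differ among themselves, library 1 being highest for 5 of the genes.

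Counted together for *Trp53*-/- against *Trp53*+/+, 4 of the 9 members were called lower and 0 higher in *Pole4*-/- cells (*Irgm1*, *Igtp*, *Irgm2* and *Iigp1*), where 20.8% of all genes were called lower and 21.8% higher. Their median log2 fold change was -1.40, against -0.02 for all genes, and 7 of the 9 lay wholly below, against 28.5% of all genes. The summed fibroblast markers were also wholly lower there, at 14351 to 17084 CPM against 25259 to 31325, and their part in the result was not tested. Of the 10 fibroblast markers 5 were called lower and 2 higher, with a median of -0.22. The 6 epithelial markers summed to 4.40 to 20.2 CPM in these *Trp53*-/- libraries against 2.06 to 2.67 in the *Trp53*+/+ libraries, and both of those tested (*Krt8* and *Krt18*) were called higher, while *Epcam* and *Cdh1* stayed at or under 0.332 CPM in all 18 libraries. Ribosomal RNA took 24.7% to 30.0% of these *Trp53*-/- libraries and 7.11% to 42.5% of the *Trp53*+/+ libraries. In *Pole4*+/+ cells 1 was called lower, *Irgm1*, and 1 higher, *Igtp*, against 2.37% and 2.23% of all genes, while 1 lay wholly below and 2 wholly above (*Igtp* and *Gbp3*), against 8.31% and 8.24% of all genes. The median there was 0.82, against 0.03 for all genes, and -0.21 without the *Pole4*+/+ *Trp53*-/- library 1, with *Irgm1* then the only member called. For *Trp53*+/- against *Trp53*+/+, 1 member was called lower in *Pole4*+/+ cells, *Irgm1*, against 0.407% of all genes. It was also the only one wholly below, against 10.1% of all genes, and *Igtp*, *Gbp2* and *Gbp3* lay wholly above, against 10.2%, at 0.83 ± 0.49, 0.83 ± 0.26 and 1.09 ± 0.53. Sex and genotype cannot be told apart in that comparison. *Gbp7* (0.82 ± 0.47), *Irgm2* (0.56 ± 0.73), *Tgtp2* (0.20 ± 0.64), *Iigp1* (0.02 ± 0.88) and *Tgtp1* (-1.15 ± 0.71) overlapped. In *Pole4*-/- cells 0 were called by edgeR and 0 by DESeq2, against 5.12% of all genes by edgeR, and 2 had an unadjusted p under 0.05 (*Iigp1* and *Gbp3*), against 26.0% of all genes. There *Irgm2*, *Iigp1* and *Tgtp1* lay wholly below, against 18.9% of all genes, at -0.77 ± 0.70, -2.18 ± 0.87 and -0.99 ± 0.65. The others overlapped, with *Tgtp2* at -0.94 ± 0.61, *Igtp* at -0.64 ± 0.46, *Gbp3* at 1.31 ± 0.55, *Gbp2* at 0.15 ± 0.26 and *Gbp7* at -0.07 ± 0.46. With 3 libraries a group the exact permutation test (2-sided) cannot go below a p of 0.1, and it gave 0.1 wherever groups did not overlap. In each *Pole4* background the *Trp53*-/- and *Trp53*+/- comparisons share their *Trp53*+/+ libraries and are not independent.

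The highest level of each of 5 members, *Igtp*, *Irgm2*, *Iigp1*, *Gbp3* and *Gbp7*, was in the *Pole4*+/+ *Trp53*-/- library 1. Of all genes tested, 11.7% were highest in that library. Of 27 tested genes on a list of other interferon-stimulated genes, 18 were. In *Igtp* and *Irgm2* it stood at 3.72 and 3.95 times the median of the 18 libraries, and in *Iigp1* at 9.04 times. It was not the highest for *Irgm1*, *Tgtp1*, *Tgtp2* or *Gbp2*.

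**Figure D4:**
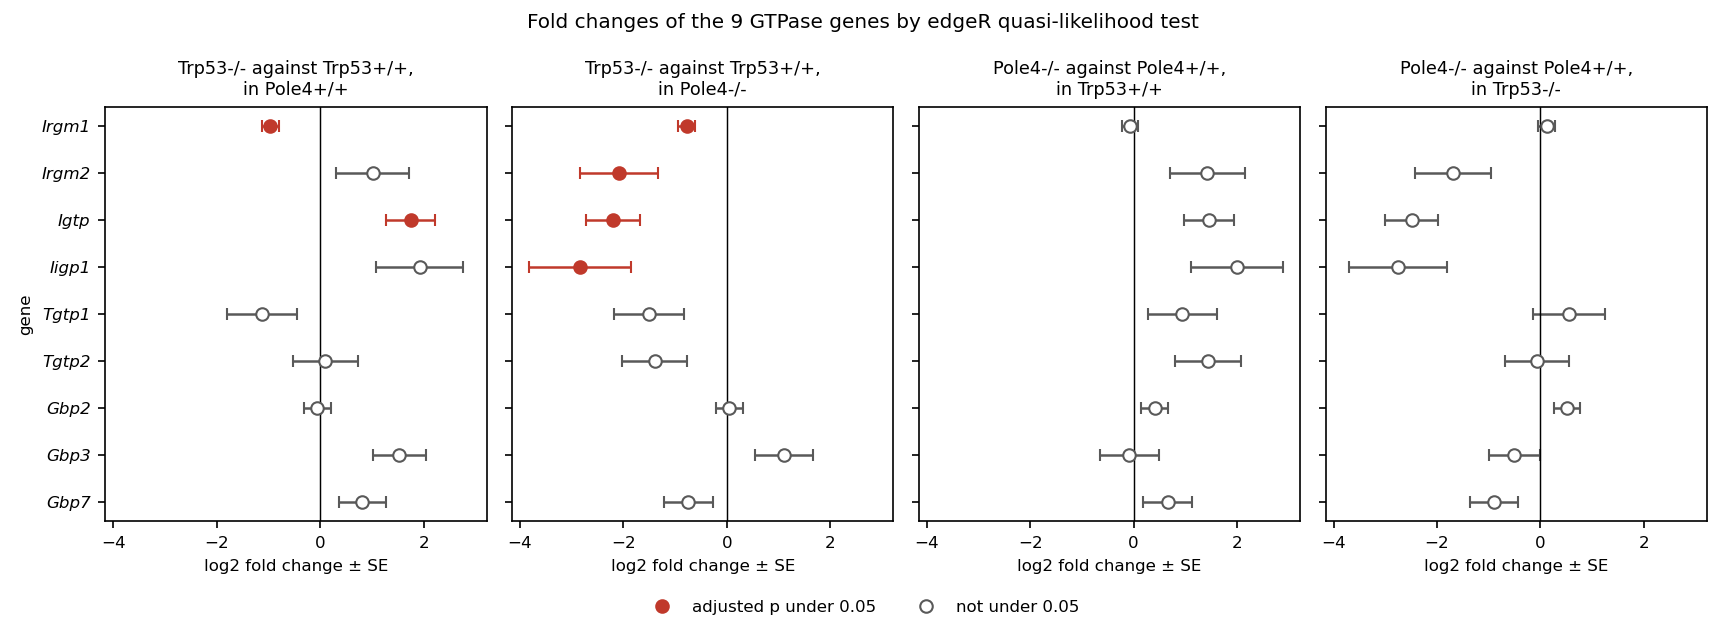
Log2 fold change ± SE (x axis) of the 9 genes (y axis) in 4 comparisons of edgeR's quasi-likelihood test, filled red where the adjusted p is under 0.05. In Pole4-/- cells without Trp53, Irgm1, Irgm2, Igtp and Iigp1 are called lower; in Pole4+/+ cells without Trp53, Irgm1 is called lower and Igtp higher, the latter not without library 1; in the 2 comparisons of Pole4 no member is called.

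For *Pole4*-/- against *Pole4*+/+ no member was called at any *Trp53* genotype. In *Trp53*+/+ cells 3.98% of all genes were called and 3 of the 9 members had an unadjusted p under 0.05, against 26.1% of all genes, and DESeq2 called 0. The largest values were those of *Iigp1* (2.0 ± 0.88, adjusted p = 0.167), *Igtp* (1.46 ± 0.49, adjusted p = 0.0878), *Tgtp2* (1.44 ± 0.63, adjusted p = 0.167) and *Irgm2* (1.42 ± 0.72, adjusted p = 0.225). The 3 *Pole4*-/- libraries lay above the 3 *Pole4*+/+ libraries for 6 of the 9 members, these 4 with *Gbp2* and *Gbp7*, against 19.4% of all genes. *Irgm1* did not share in this, at -0.07 ± 0.16 (adjusted p = 0.819). *Tgtp1* (0.94 ± 0.66) and *Gbp3* (-0.08 ± 0.57) overlapped as well. In these *Pole4*-/- libraries the summed fibroblast markers were wholly higher, at 25259 to 31325 CPM against 16710 to 22379, and the epithelial ones wholly lower, at 2.06 to 2.67 CPM against 2.84 to 6.76. Of the 10 fibroblast markers 1 was called, higher, with a median log2 fold change of 0.09 and 3 negative values. Neither of the 2 epithelial markers tested was called. All 14 macrophage markers had negative values, with a median of -1.43, but none was called and their sums overlapped. The part of these markers in the result was not tested.

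In *Trp53*-/- cells 0.00637% of all genes were called for *Pole4*, a single gene, and 3 members had an unadjusted p under 0.05, against 10.4% of all genes. *Igtp* was lower in the *Pole4*-/- libraries, at 0.454, 0.275 and 0.265 CPM, than in any *Pole4*+/+ library, at 3.42, 1.12 and 0.956 CPM. The log2 fold change of -2.49 ± 0.51 had an unadjusted p of 0.000172 and an adjusted p of 0.3, and DESeq2 called it (adjusted p = 0.0216). Of all genes, 4.83% lay wholly below as *Igtp* did. Without the *Pole4*+/+ *Trp53*-/- library 1 its value was -1.64 (adjusted p = 0.684). *Irgm2* (-1.68 ± 0.74) and *Iigp1* (-2.76 ± 0.95) overlapped between the groups, at adjusted p = 0.463 and 0.447, and were 0.15 and -0.99 without that library. The values of *Gbp7* (-0.90 ± 0.46), *Tgtp1* (0.56 ± 0.69), *Gbp2* (0.51 ± 0.26), *Gbp3* (-0.51 ± 0.49), *Irgm1* (0.12 ± 0.16) and *Tgtp2* (-0.06 ± 0.63) came from groups that overlapped too. Without that library those of *Gbp7*, *Gbp3* and *Tgtp2* turned to 0.080, 0.21 and 0.88, and that of *Tgtp1* was 1.24. In *Trp53*+/- cells, where 0.00637% of all genes were called again, 1 member had an unadjusted p under 0.05, against 5.51% of all genes. That was *Irgm1*, described above, which lay wholly above as 6.26% of all genes did and which DESeq2 called (adjusted p = 0.0235). The other members overlapped there, from -0.28 ± 0.25 for *Gbp2*, -0.24 ± 0.45 for *Gbp7*, -0.20 ± 0.95 for *Iigp1* and -0.01 ± 0.47 for *Igtp* to 0.09 ± 0.70 for *Irgm2*, 0.14 ± 0.49 for *Gbp3*, 0.30 ± 0.62 for *Tgtp2* and 1.10 ± 0.70 for *Tgtp1*.

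The order of the genotypes differed among the members. For *Irgm1*, *Pole4*+/+ *Trp53*+/+ was the highest (48.7 ± 8.06 CPM), followed by the *Pole4*-/- groups with *Trp53*+/+ (46.5 ± 2.11) and *Trp53*+/- (45.0 ± 1.58). Below these came *Pole4*+/+ *Trp53*+/- (27.9 ± 6.27), and then *Trp53*-/- of *Pole4*-/- (27.0 ± 5.42) and of *Pole4*+/+ (24.9 ± 2.56, n = 3 each). Neighbours in this order overlapped but for the step between the third and the fourth. *Igtp* ran from 1.83 ± 1.38 in *Pole4*+/+ *Trp53*-/- and 1.504 ± 0.537 in *Pole4*-/- *Trp53*+/+ through 1.02 ± 0.13 and 1.00 ± 0.44 in the *Trp53*+/- groups of *Pole4*+/+ and *Pole4*-/- to 0.569 ± 0.085 in *Pole4*+/+ *Trp53*+/+ and 0.331 ± 0.106 in *Pole4*-/- *Trp53*-/-. The mean of the first rests on library 1 at 3.42 CPM, its other two libraries measuring 1.12 and 0.956 CPM, less than or within the 1.05 to 2.10 CPM of the second. Each of the last 2 groups in this order lay wholly below the one before it, and the others overlapped with their neighbours. For *Irgm2*, *Iigp1*, *Tgtp1*, *Tgtp2* and *Gbp7* every neighbour overlapped, and for *Gbp2* and *Gbp3* all but 1 pair. *Pole4*-/- *Trp53*+/+ was the highest group of *Irgm2* (5.52 ± 1.25 CPM), *Iigp1* (0.537 ± 0.126), *Tgtp1* (4.12 ± 0.39) and *Tgtp2* (4.70 ± 2.12), and *Pole4*-/- *Trp53*-/- was the lowest group of *Igtp*, *Irgm2*, *Iigp1*, *Tgtp2* and *Gbp7*.

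Across the 18 libraries, which share depth and genotype, *Irgm2* went along with *Igtp*, *Iigp1*, *Tgtp2* and *Gbp7*, with Pearson's r of log2 CPM of 0.77, 0.78, 0.77 and 0.78. *Irgm1* was near no correlation with *Igtp* (0.09) and highest with *Tgtp1* (0.60). *Gbp3* was negative with *Irgm1* (-0.48). The genes outside the list whose log2 CPM was most like the mean of the 9 standardized members over the 18 libraries were *Bnip3l* (0.96), *Tapbp* (0.95), *Wbp1*, *Cdkn2b* and *Anxa4* (0.94 each), *P2rx6*, *Ddt* and *Ddx58* (0.93 each), and *5930403N24Rik* and *Pygl* (0.92 each). Of these, *Tapbp*, which loads peptides on MHC class I, and *Ddx58*, the RNA sensor RIG-I, stood on the list of interferon-stimulated genes. That list held 27 of the 15710 genes tested. The 10 genes were picked as the highest correlations among all genes tested outside the members.

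Other members of the 2 families were for the most part not detected well enough to test. Of 17 further IRG and GBP genes, 4 passed the filter, and among the rest *Gbp11* was at 0 in all libraries and none went above 0.642 CPM. The 4 were *Irgq*, *9930111J21Rik1*, *9930111J21Rik2* and *Ifi47*. In *Pole4*-/- cells 3 of these 4 were called lower without *Trp53*, against 20.8% of all genes: *9930111J21Rik1* (8.49 ± 3.03 to 2.78 ± 0.93 CPM, log2 fold change -1.63), *9930111J21Rik2* (34.7 ± 9.18 to 14.5 ± 4.64 CPM, -1.25) and *Irgq* (54.4 ± 4.88 to 36.4 ± 1.09 CPM, -0.58). In *Pole4*+/+ cells 1 was, *9930111J21Rik2* (31.6 ± 4.16 to 10.2 ± 2.32 CPM, -1.62, adjusted p = 0.000941), against 2.37% of all genes, and without the *Pole4*+/+ *Trp53*-/- library 1 *Irgq* was called lower too, in a fit that called 1340 of all 15710 genes lower in place of 372. In *Pole4*+/+ *Trp53*+/- both Rik genes were called lower, at -1.58 and -1.30, against 0.407% of all genes, and in *Pole4*-/- *Trp53*+/- none of the 4 was. Sex and genotype cannot be told apart in the former. The Rik genes lie between *Irgm1* and *Tgtp2* on chromosome 11, and neither held an ISRE-like or a GAS-like match in its 250 bases. These 250 bases share a long run of letters between the 2 Rik genes. Their summed expected counts, 2101.39 and 8128.39, were not whole. How reads were divided between them was not checked, so they may not be 2 separate results.

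Transcripts of the interferons themselves were at or near 0. Of 9 ligands 7, *Ifnb1* and *Ifng* among them, had 0 counts in all libraries, *Ifna2* had 1 count and *Ifne* 4 in all. Of 10 receptor, JAK and STAT genes, 1 was called higher and 3 lower without *Trp53* in *Pole4*-/- cells, where 21.8% and 20.8% of all genes were: *Jak2* (0.34 ± 0.11) and *Tyk2* (-0.86 ± 0.17), *Ifngr2* (-0.32 ± 0.12) and *Stat3* (-0.26 ± 0.09). None was called in *Pole4*+/+ cells, with or without library 1 of *Trp53*-/-. Of the 8 tested transcription factors, *Irf1*, an activator of these genes, was called higher in *Pole4*-/- cells without *Trp53* (12 ± 0.88 to 17.1 ± 2.47 CPM, 0.53 ± 0.13, adjusted p = 0.00532) and in *Pole4*+/+ *Trp53*+/- cells (12.8 ± 2.11 to 20.2 ± 0.97 CPM, 0.66 ± 0.13, adjusted p = 0.0244). In the latter 0.496% of all genes were called higher, and sex and genotype cannot be told apart. *Irf3* was called lower in *Pole4*-/- cells without *Trp53* (-0.34 ± 0.09). Of the feedback inhibitors, the phosphatase gene *Ptpn2* was called higher (0.60 ± 0.14) and *Pias1* lower (-0.47 ± 0.11) in *Pole4*-/- cells without *Trp53*. In *Pole4*+/+ cells without *Trp53* none of these was called. With the *Pole4*+/+ *Trp53*-/- library 1 left out, *Irf1* was called higher and *Pias1* lower, in a fit that called 1378 of all genes higher and 1340 lower in place of 351 and 372. In *Pole4*-/- *Trp53*+/- cells *Pias1* was called lower (-0.44 ± 0.10), where 5.12% of all genes were called in either direction.

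Of the 27 tested genes of the list of other interferon-stimulated genes, 10 were called lower and 3 higher without *Trp53* in *Pole4*-/- cells, against 20.8% and 21.8% of all genes, with a median log2 fold change of -0.62 against -0.02 for all genes. *Tap1*, the peptide transporter, fell from 9.36 ± 0.50 to 0.387 ± 0.139 CPM (-4.61 ± 0.51), and *Tap2* (-1.60), *Tapbp* (-0.82), *H2-K1* (-0.78), *B2m* (-0.72) and *H2-D1* (-0.62) fell with it. The other genes called lower were *Trim30a* (-2.72), *Ifih1* (-0.90), *Ddx58* (-0.86) and *Ifi35* (-0.53). The chemokine *Cxcl10* went the other way, from 0.0931 ± 0.0851 to 1.53 ± 0.47 CPM (3.77 ± 0.63), and *Psmb10* of the immunoproteasome (0.48) and *Ifit2* (0.46) were called higher too. In *Pole4*+/+ cells 1 was called lower, *Tap1* (-1.76 ± 0.44), against 2.37% of all genes, and 4 higher, against 2.23%: *Cxcl10* (2.49), *Oasl2* (2.20), *Xaf1* (1.32) and *Ifit2* (0.56), with a median of 0.66. Without the *Pole4*+/+ *Trp53*-/- library 1 that median was -0.08, and 3 were called higher (*Cxcl10*, *Oasl2* and *Ifit2*) and 2 lower (*Tap1* and *B2m*), in a fit that called 1378 of all 15710 genes higher and 1340 lower. In *Pole4*+/+ *Trp53*+/- cells 1 was called, *Psmb8* of the immunoproteasome, higher by 1.72 ± 0.38, against 0.496% of all genes called higher. Sex and genotype cannot be told apart there.

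IRG and GBP proteins reach vacuoles with the help of ubiquitin ligases and of the conjugation machinery of autophagy. Of 14 such partners, 8 were called lower and 1 higher without *Trp53* in *Pole4*-/- cells, against 20.8% and 21.8% of all genes, with a median log2 fold change of -0.36 against -0.02 for all genes. The ubiquitin-like proteins *Gabarap* (252 ± 8.04 to 144 ± 23.0 CPM, -0.80 ± 0.16), *Map1lc3b* (-0.75), *Map1lc3a* (-0.66), *Gabarapl1* (-0.58) and *Gabarapl2* (-0.31) were all lower. So were the ligase gene *Trim21* (-1.50), the receptor gene *Sqstm1* (-0.46) and *Atg7* (-0.42), while *Traf6*, another ligase, was higher (0.33). In *Pole4*+/+ cells without *Trp53*, *Rabgef1* was the only one called (-0.44), against 2.37% of all genes called lower. When the *Pole4*+/+ *Trp53*-/- library 1 was left out, *Gabarap*, *Map1lc3a* and *Map1lc3b* were called lower too and the median was -0.26, in the fit that called 1340 of all 15710 genes lower in place of 372. In *Pole4*+/+ *Trp53*+/- cells *Gabarapl2* was called lower (-0.47), against 0.407% of all genes called lower. Sex and genotype cannot be told apart there.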

How the data were processed

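RNA-seq was performed on 18 libraries of primary MEFs, 3 for each of 6 genotypes. Per the labels, RNA was made into cDNA with an Ovation kit and sequenced as paired reads of 100 bases, and by the methods the authors trimmed reads with Trim Galore 0.4.2, aligned them with STAR 2.5.2 to GRCm38 with Ensembl release 89 and counted them with RSEM 1.3.0. The values are the authors' expected counts per gene as deposited, which share reads out between similar genes, so 6.14% of them are not whole. Identifiers were given symbols from GENCODE's annotation of GRCm38.

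Counts were rounded and genes filtered with filterByExpr, which left 15710. edgeR 4.0.16 under R 4.3.3 was used with TMM scaling, 1 mean per genotype over the 18 libraries and robust quasi-likelihood fits. The p-values of all genes tested were adjusted by Benjamini-Hochberg, and a gene under 0.05 was called, and an SE is the log2 fold change divided by the square root of F. Alternatives were DESeq2 1.42.0, other scalings, no filter, fits on the compared libraries alone, a replicate block, sex as a covariate and leaving out each library. Correlations used log2 CPM with a prior count of 2. The pipeline was tested on simulated counts. Values of 1 gene of the lists are not reported here. The members, the gene lists and the tests were chosen with earlier results of these data known. The 9 members were named by their list, genes of the other gene lists where they were called, and the 10 genes most like the members by correlation. *Ifi47*, *Gbp11*, the interferons and the marker genes named were chosen after their values were seen. Same-numbered libraries deviated together, with a correlation over 0.1 in every pair, only for *Pole4*-/- *Trp53*+/- against *Pole4*+/+ *Trp53*+/- (correlations 0.261, 0.497 and 0.292), and nothing in the labels says what a number stands for.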

Additional observations from a re-analysis of the deposited data

Results flagged for a closer look

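The loss of *Trp53* moved *Igtp* in opposite directions in the 2 *Pole4* backgrounds, and the test of that difference passed: its log2 value was -3.95 ± 0.71 (edgeR's quasi-likelihood test, adjusted p = 0.0362). All 3 *Trp53*-/- libraries lay below the 3 *Trp53*+/+ libraries in *Pole4*-/- cells and above them in *Pole4*+/+ cells. Without the *Pole4*+/+ *Trp53*-/- library 1, the highest of the 18 for this gene and the only female library with over 0.337 CPM of Y-linked genes, the value was -3.10 (adjusted p = 0.0327), but the rise in *Pole4*+/+ cells was then not called (0.88, adjusted p = 0.171). The difference was not called for 8 of the 12 libraries when each was left out in turn, nor with sex as a covariate (adjusted p = 0.0628), library totals alone (0.146) or only the libraries compared (0.12). Groups of 3 libraries are too small for a test of single outlying libraries.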

How the results depend on the processing

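All values named here are numbers of the 9 members called, or log2 fold changes. For *Trp53*-/- in *Pole4*-/- cells 4 members were called, and 3 with library totals alone or no filter, 6 with only the libraries compared, and 2 to 5 with 1 library left out, 2 of them without *Pole4*-/- *Trp53*+/+ library 1 or 3 or without *Pole4*-/- *Trp53*-/- library 2 or 3. For *Trp53*-/- in *Pole4*+/+ cells 2 were called, and 1 with library totals alone or no filter, 0 with only the libraries compared, and 1 to 2 with 1 library left out, where *Irgm1* stayed called. For *Trp53*+/- in *Pole4*+/+ cells 1 was called, and 0 with library totals alone, only the libraries compared or sex as a covariate, and 0 to 1 with 1 library left out. For *Trp53*+/- in *Pole4*-/- cells 0 were called, and 1 with only the libraries compared. For *Pole4*-/- 0 were called, and 2 in *Trp53*+/+ cells with only the libraries compared, and 1 in *Trp53*+/- and 1 in *Trp53*-/- cells with DESeq2. For the difference of the *Trp53*-/- effects 1 was called, and 2 with DESeq2, 0 with library totals alone, only the libraries compared or sex as a covariate, and 0 to 4 with 1 library left out. The causes were not tested.

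With the replicate number as a block, the difference of the *Trp53*-/- effects had 2 members called in place of 1, *Igtp* and *Iigp1* (-4.68, adjusted p = 0.0496), and no other number of calls changed. In that block fit the value of *Iigp1* in *Pole4*+/+ *Trp53*+/- against *Pole4*+/+ *Trp53*+/+ turned from 0.02 to -0.12.

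Library totals in place of TMM shifted the median of all genes by 0.29 for *Trp53*+/- in *Pole4*-/- cells, -0.29 for *Pole4*-/- in *Trp53*+/+ cells, -0.42 for *Pole4*-/- in *Trp53*-/- cells and -0.13 for the difference of the *Trp53*-/- effects. With them these values, none of them called, turned: *Irgm1* 0.27 and *Gbp7* 0.21 for *Trp53*+/- in *Pole4*-/- cells, *Gbp2* 0.028 for *Trp53*-/- in *Pole4*+/+ cells, *Igtp* 0.032 for *Pole4*-/- in *Trp53*+/- cells, *Irgm1* -0.30 for *Pole4*-/- in *Trp53*-/- cells and *Gbp2* -0.013 for the difference. Upper-quartile scaling turned *Gbp2* for *Trp53*-/- in *Pole4*-/- cells to -0.045, no filter turned *Irgm1* for *Trp53*+/- in *Pole4*-/- cells to 0.022, sex as a covariate turned *Iigp1* for *Trp53*+/- in *Pole4*+/+ cells to -0.013 and *Irgm2* for *Pole4*-/- in *Trp53*+/- cells to -0.062, and DESeq2 turned *Iigp1* for *Trp53*+/- in *Pole4*+/+ cells to -0.0315.

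With 1 library left out, values of uncalled members turned within these ranges. For *Trp53*-/- in *Pole4*-/- cells *Gbp2* ran from -0.25 to 0.28. For *Trp53*-/- in *Pole4*+/+ cells *Gbp2* ran from -0.22 to 0.077, *Gbp7* from -0.19 to 1.15, *Irgm2* from -0.85 to 1.84, *Tgtp1* from -1.83 to 0.051 and *Tgtp2* from -0.86 to 0.65. For *Trp53*+/- in *Pole4*-/- cells *Gbp2* ran from -0.089 to 0.35 and *Gbp7* from -0.22 to 0.066. For *Trp53*+/- in *Pole4*+/+ cells *Iigp1* ran from -0.69 to 0.26, *Tgtp1* from -1.78 to 0.027 and *Tgtp2* from -0.18 to 0.74. For *Pole4*-/- in *Trp53*+/+ cells *Gbp3* ran from -1.11 to 0.42 and *Irgm1* from -0.15 to 0.074. For *Pole4*-/- in *Trp53*+/- cells *Gbp3* ran from -0.047 to 0.29, *Igtp* from -0.42 to 0.20, *Iigp1* from -0.43 to 0.52, *Irgm2* from -0.15 to 0.44 and *Tgtp2* from -0.23 to 0.54. For *Pole4*-/- in *Trp53*-/- cells *Gbp3* ran from -0.79 to 0.21, *Gbp7* from -1.26 to 0.080, *Irgm1* from -0.049 to 0.24, *Irgm2* from -2.16 to 0.15 and *Tgtp2* from -0.64 to 0.88. For the difference *Gbp2* ran from -0.19 to 0.34, *Gbp3* from -0.95 to 0.61 and *Tgtp1* from -1.56 to 0.30. Of 504 values under the other alternatives 471 kept their direction and side of the threshold, as did 410 of 486 with 1 library left out.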
